A study of Homo sapiens with 3 samples.

Results

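Translesion synthesis is the process by which a cell copies past damaged DNA, and 8 human genes of it were followed here: the polymerase genes POLH, POLI, POLK, REV1, REV3L and POLQ, the polymerase zeta subunit gene MAD2L2 and the ubiquitin ligase gene RAD18. They were chosen by name and found through every probe set of the array annotation that carried a single gene symbol, which gave 24 probe sets of 54675 in the table and 8 genes of 19775. RNA came from KYSE140, a cell line established from a human squamous cell carcinoma of the oesophagus and grown in RPMI medium with serum. Cells were exposed to cisplatin at a labelled 10 mM for 12 h (2 arrays, titled B1 and B2) or left untreated (1 array), and all groups were the same unmodified line. Cell cultures are usually given cisplatin in the micromolar range, which puts the unit of the label in doubt. Whether B1 and B2 were separate cultures is not stated in the labels, so the spread between them, and any p-value that rests on it, may be technical, and the untreated level of each gene is that of 1 array.

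Cisplatin joins neighbouring purines of a DNA strand, and less often purines of opposite strands, and such crosslinks block the replicative polymerases. RAD18, acting with the ubiquitin-conjugating enzymes UBE2A and UBE2B, attaches ubiquitin to the sliding clamp PCNA at the stalled fork, which draws in the Y-family polymerases eta (POLH), iota (POLI), kappa (POLK) and REV1 to insert a base opposite the lesion. Polymerase zeta, with REV3L as its catalytic subunit and MAD2L2 (REV7) as its adaptor, then extends the distorted primer end. Polymerase theta (POLQ), of the A family, joins broken ends through short matching sequences and can also bypass some lesions.

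The 8 genes did not all lie on the same side of the untreated array, and no difference passed a test. Of all probe sets, 28.3% were lower in both cisplatin arrays and 39.3% higher in both. The polymerase genes POLQ, POLK and REV1 were lower in both cisplatin arrays in every probe set, and RAD18 was lower in 3 of its 4. MAD2L2, by its only probe set, and both probe sets of POLI were higher in both arrays. POLH was higher in 4 of its 6, and the probe sets of REV3L went opposite ways. Some of these probe sets were dim. A mean log2 value of 6 was reached by 2 of 3 for POLK, 2 of 4 for REV1, 2 of 4 for RAD18, 1 of 2 for POLI and 2 of 6 for POLH. By the brightest probe set of each gene, the log2 difference averaged over B1 and B2 was -0.98 for POLQ, -0.96 for POLK, -0.78 for REV1, -0.78 for REV3L and -0.26 for RAD18. It was 0.46 for MAD2L2, 0.12 for POLI and 0.10 for POLH. POLI and POLH were near the middle of the table, since 61.5% and 58.6% of all genes had a lower mean difference. For RAD18 that share was 17.1%. All log2 differences are cisplatin minus untreated.

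**Figure D1:**
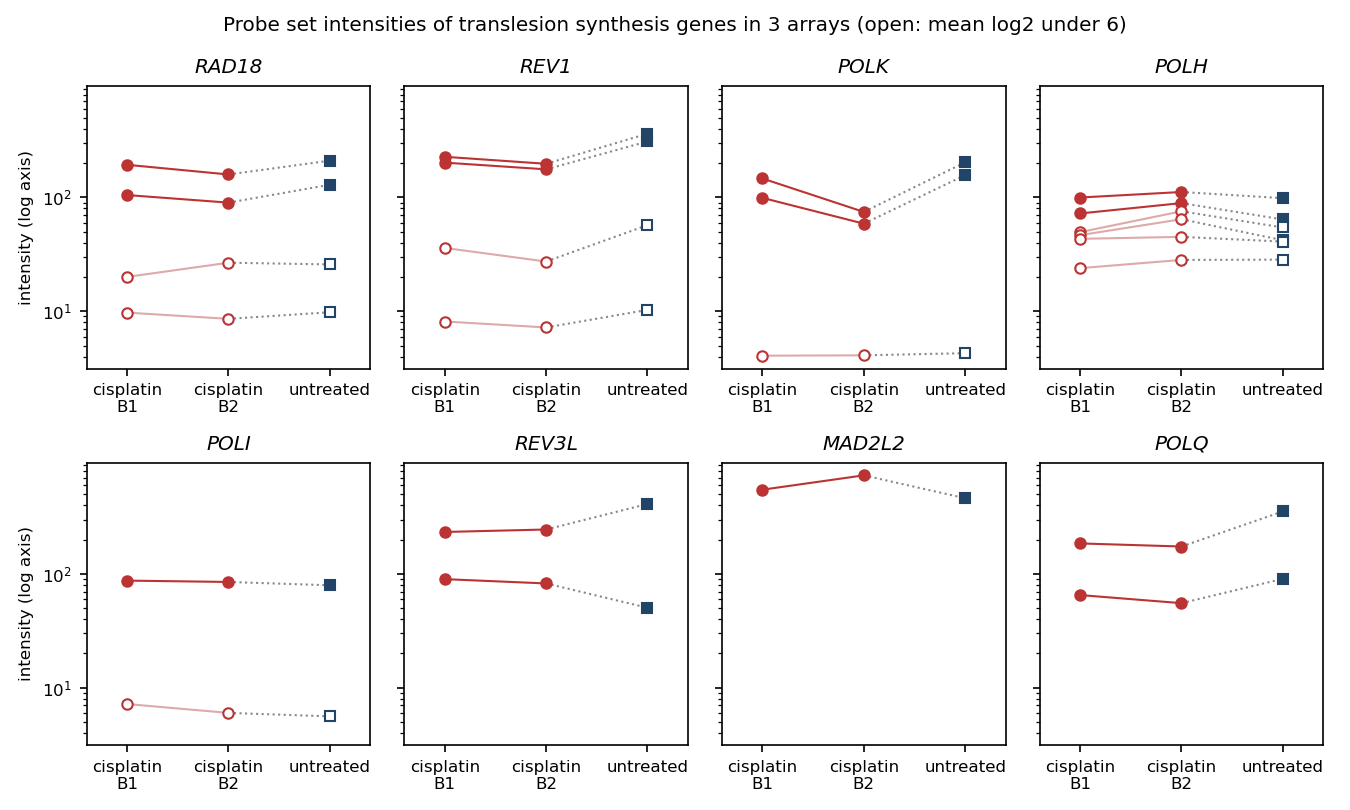
Intensity of each of the 24 probe sets in cisplatin arrays B1 and B2 (red circles) and in the untreated array (blue squares), on a log axis, with 1 panel per gene and lines joining the values of a probe set; open symbols have a mean log2 value under 6. The cisplatin values of POLQ, POLK and REV1 lie below the untreated value in every probe set, those of MAD2L2 and POLI above it, and REV3L has 1 probe set on each side.

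Over all probe sets of the 8 genes, 14 of 24 were lower in both cisplatin arrays, 8 were higher in both and 2 lay on different sides. Of all 54613 probe sets tested, 28.3% were lower in both and 39.3% higher in both. Brightness matters to that reading, because bright probe sets were more often lower. The 14 member probe sets whose mean log2 value reached 6 comprised 9 lower and 5 higher in both arrays, where 34.8% and 29.2% of all probe sets that bright were. A difference of at least 1.5-fold downwards in both arrays was seen in 6 of the 24 (2.67% of all probe sets) and in 5 of the bright 14 (4.15% of all bright probe sets), and upwards in 1 of the 24 (1.17%). None of the 24 differed by 2-fold in both arrays in either direction (0.659% of all probe sets were that much lower and 0.233% higher). The median log2 difference of the 24 was -0.19 in B1 and -0.13 in B2, against 0.03 and 0.05 for all probe sets. Several of the 6 probe sets at least 1.5-fold lower were of REV1, so they are not separate members. With 1 probe set per gene, and REV3L read from 208070_s_at, 5 of 8 genes were lower and 3 higher in both arrays. Of all genes whose mean log2 value reached 6, 34.2% and 29.8% were. With that reading, 3 of the 8 were at least 1.5-fold lower in both, as were 443 of the 10209 genes that bright. Read from 238736_at, REV3L was instead at least 1.5-fold higher in both (0.84 and 0.71), and 4 genes were lower and 4 higher.

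No member passed limma's moderated test across all probe sets, cisplatin against untreated. The Benjamini-Hochberg adjusted p of the 24 lay between 0.948 and 0.969, and no probe set of the whole table passed (0% of 54613, smallest adjusted p = 0.948). An unadjusted limma p under 0.05 was reached by 6 of the 24 probe sets (5 lower, 1 higher), and by 3.96% of all probe sets. Several of the lower ones were probe sets of the same gene, REV1. Only the spread of the cisplatin pair gave the fit a residual degree of freedom (1), so standard errors (SE) combine that spread with a prior pooled over probe sets. With 2 arrays against 1, an exact permutation test of a single value cannot give a two-sided p below 0.33. The differences below are therefore described by their values in each array and not as changes that passed a test.

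The array of B2 stood apart from the other arrays, and each value is given for B1 and B2 separately for that reason. The SD of log2 differences over all probe sets was 0.34 for B1 minus untreated, 0.54 for B2 minus untreated and 0.49 for B2 minus B1. Of 15 squamous epithelial markers 12 were measured, and their summed intensity was 36860 in B1, 43890 in B2 and 39210 untreated; TP63, KRT6A and KRT17 had no probe set with a single gene symbol. Of the 12, 2 were higher in both cisplatin arrays, 2 lower and 8 divided. B2 differed from both other arrays upwards in the basal keratin KRT14 (276 in B1, 2372 in B2, 278 untreated) and KRT5 (1345, 4251 and 1217), and downwards in the simple keratins KRT8 (2946, 1418 and 2921) and KRT18 (10400, 6461 and 9975) and in KRT13 (68.2, 25.5 and 66.0). SOX2 was lowest in B1, at 2416 in B1, 5308 in B2 and 5656 untreated. Fibroblast markers (11 of 11 measured) summed to 509 in B1, 1085 in B2 and 448 untreated, with VIM, a mesenchymal filament that carcinoma cells also express, at 97.5, 565 and 78.8. These VIM values are of the brighter of 2 probe sets, and the other was lower in both cisplatin arrays. The mean log2 difference of VIM was 1.58 by the brighter and 0.71 over both. Leukocyte markers (8 of 10 measured) summed to 198, 190 and 180, and endothelial markers (8 of 8) to 237, 216 and 197. Of the leukocyte markers 4 were higher in both cisplatin arrays, 2 lower and 2 divided, and of the endothelial markers 3, 2 and 3. Other bright fibroblast markers were the collagen gene COL1A1 (155, 159 and 122) and THY1 (61.6, 144 and 59.5), and with COL5A1 (42.4, 59.2 and 28.6) they were higher in both cisplatin arrays. Of all 11 fibroblast markers, 6 were higher in both, 2 lower (COL3A1 and FAP) and 3 divided. Their median log2 differences were 0.00 in B1 and 0.08 in B2. Over all genes, 39.2% were higher in both arrays and 27.4% lower in both. RMA values do not reach 0, and the medians of all probe sets were 35.9 in B1, 35.6 in B2 and 34.8 untreated. COL3A1 (8.85, 9.50 and 10.5), POSTN (7.09, 7.62 and 7.32) and the leukocyte marker PTPRC (5.24, 5.50 and 6.25) lay below those medians, whereas the T cell marker CD3E (54.6, 49.9 and 50.1) and the endothelial marker PECAM1 (55.1, 49.6 and 40.9) lay above them. The part of these marker levels in the results was not tested, and in bulk RNA fewer cells of a type cannot be told apart from less RNA per cell.

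The promoters of POLQ, POLK, REV1 and POLH are shown because the first 3 genes were the lowest with a single start window in RefSeq and POLH was not lower. Each line holds the 250 bases upstream of the gene's start in RefSeq on GRCh38.p14, 5′ to 3′ on the gene's strand, and capitals mark matches to the motifs listed after them.
POLQ (chr3:121545989-121546238, minus strand): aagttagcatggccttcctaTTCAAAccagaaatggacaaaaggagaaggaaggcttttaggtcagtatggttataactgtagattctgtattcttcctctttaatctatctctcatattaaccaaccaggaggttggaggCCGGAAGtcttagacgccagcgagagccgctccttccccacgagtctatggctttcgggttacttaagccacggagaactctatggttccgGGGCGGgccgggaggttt
POLK (chr5:75511641-75511890, plus strand): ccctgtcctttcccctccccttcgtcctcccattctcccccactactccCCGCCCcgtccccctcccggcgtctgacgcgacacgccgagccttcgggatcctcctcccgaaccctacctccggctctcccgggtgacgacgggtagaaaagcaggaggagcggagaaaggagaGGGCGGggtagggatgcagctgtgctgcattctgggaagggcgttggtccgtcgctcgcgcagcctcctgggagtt
REV1 (chr2:99490018-99490267, minus strand): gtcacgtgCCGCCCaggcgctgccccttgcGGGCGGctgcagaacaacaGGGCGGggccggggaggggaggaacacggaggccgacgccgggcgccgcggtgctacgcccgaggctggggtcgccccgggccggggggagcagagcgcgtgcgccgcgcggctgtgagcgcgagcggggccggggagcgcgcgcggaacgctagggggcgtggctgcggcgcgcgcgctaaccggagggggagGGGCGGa
POLH (chr6:43575935-43576184, plus strand): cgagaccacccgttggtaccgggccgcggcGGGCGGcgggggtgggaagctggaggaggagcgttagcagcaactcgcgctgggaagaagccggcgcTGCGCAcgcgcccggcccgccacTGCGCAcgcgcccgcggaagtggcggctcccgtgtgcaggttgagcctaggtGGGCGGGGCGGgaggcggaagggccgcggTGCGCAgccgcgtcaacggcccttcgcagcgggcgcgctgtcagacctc

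These windows differed in composition. GC made up 48.4% of the POLQ window, 67.2% of POLK, 80.8% of REV1 and 76% of POLH, and the median of all 35116 windows was 58%. Motifs were searched on both strands as the GC box GGGCGG, the CCAAT box CCAAT, the ETS letters CCGGAAG, the NRF1 half-site TGCGCA, the E2F letters GGCGGGAA and the cell cycle homology letters TTTGAA; an E2F match preceded by G also holds a GC box. All 8 genes were matched in RefSeq, with 10 windows, since REV3L and MAD2L2 have more than 1. The GC box was present in 7 of the 8 genes, POLI being the exception, and in 42.6% of all windows. The NRF1 half-site was found in POLH, POLI and RAD18 (6.89% of all windows), ETS letters in POLI, POLQ and RAD18 (8.52%), E2F letters in POLI and REV3L (2.72%), the cell cycle homology letters in POLQ (13.3%) and the CCAAT box in MAD2L2 (32%). A match is a description of the letters and not evidence of binding.

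RAD18, the ligase that starts the pathway by marking PCNA, was modestly lower. Its brightest probe set, 223417_at, had an intensity of 193 in B1 and 159 in B2, against 210 untreated. Both cisplatin values lay below the untreated value, with log2 differences of -0.12 and -0.40 (mean -0.26, SE 0.22). Probe set 224200_s_at had 105 and 89.9 in B1 and B2, against 129 untreated, or -0.30 and -0.52 (mean -0.41, SE 0.21). The other RAD18 probe sets were dim, at 20.0 and 26.7 against 25.8 untreated for 238670_at, whose cisplatin values lay on either side of the untreated value, and 9.73 and 8.58 against 9.81 for 238748_at.

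REV1, the deoxycytidyl transferase that also serves as the docking platform for the other Y-family polymerases, was lower in all 4 of its probe sets. The brightest, 218428_s_at, had 227 in B1 and 197 in B2, against 363 untreated, which is 62.7% and 54.4% of the untreated intensity (mean log2 difference -0.78, SE 0.20). Probe set 222628_s_at had 202 and 176 in B1 and B2, against 310 untreated (mean -0.72, SE 0.20). The dimmer 222629_at had 36.0 and 27.3, against 57.1 untreated (-0.67 and -1.06), and 243592_at had 8.13 and 7.21, against 10.3. Both cisplatin values lay below the untreated value in every REV1 probe set, as they did in 28.3% of all probe sets. The spread within the pair (SD 0.14 on the log2 scale for the brightest) was smaller than the difference.

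POLK, the polymerase that extends mismatched ends and bypasses bulky guanine adducts, was the member in which the cisplatin arrays differed most from each other. Probe set 223261_at had an intensity of 146 in B1 and 74.5 in B2, against 203 untreated. Its log2 differences were -0.47 and -1.45 (mean -0.96, SE 0.50), and the SD of the pair was 0.69. Probe set 223260_s_at had 99.0 and 58.8 in B1 and B2, against 157 untreated, or -0.66 and -1.42 (mean -1.04, SE 0.40). In both of these probe sets B1 lay between B2 and the untreated array. The third, 1555317_at, was among the dimmest values of the table, at 4.07 and 4.10 against 4.28 untreated.

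POLH, the polymerase that copies accurately past thymine dimers and cisplatin crosslinks of neighbouring guanines and whose loss causes the variant form of xeroderma pigmentosum, was not lower. Its brightest probe set, 233852_at, had 99.7 in B1 and 111 in B2, against 98.4 untreated (0.02 and 0.18, mean 0.10, SE 0.19). Probe set 222879_s_at had 72.3 and 89.1, against 64.0 untreated (0.18 and 0.48, mean 0.33, SE 0.23). The largest value was in 231115_at, with 46.6 and 64.3 against 42.1 untreated (0.15 and 0.61). Of the remaining POLH probe sets, 1557700_at was higher in both arrays (43.3 and 45.0, against 40.9), 1557701_s_at was lower in B1 and higher in B2 (49.5 and 75.5, against 54.4), and 219380_x_at was lower in both (23.9 and 28.2, against 28.4). The cisplatin values lay on either side of the untreated value in 1 of the 6 probe sets. Of all 54613, 17668 did so or were level with the untreated value in an array. Of the 6, 5 were brighter in B2 than in the untreated array.

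POLI, the error-prone paralogue of POLH, showed small differences. Probe set 219317_at had 87.3 in B1 and 84.9 in B2, against 79.4 untreated (0.14 and 0.10, mean 0.12, SE 0.18). The dim 238992_at had 7.19 and 6.02, against 5.61. Both cisplatin values lay above the untreated value in each, by less than the SE for the brighter probe set.

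**Figure D2:**
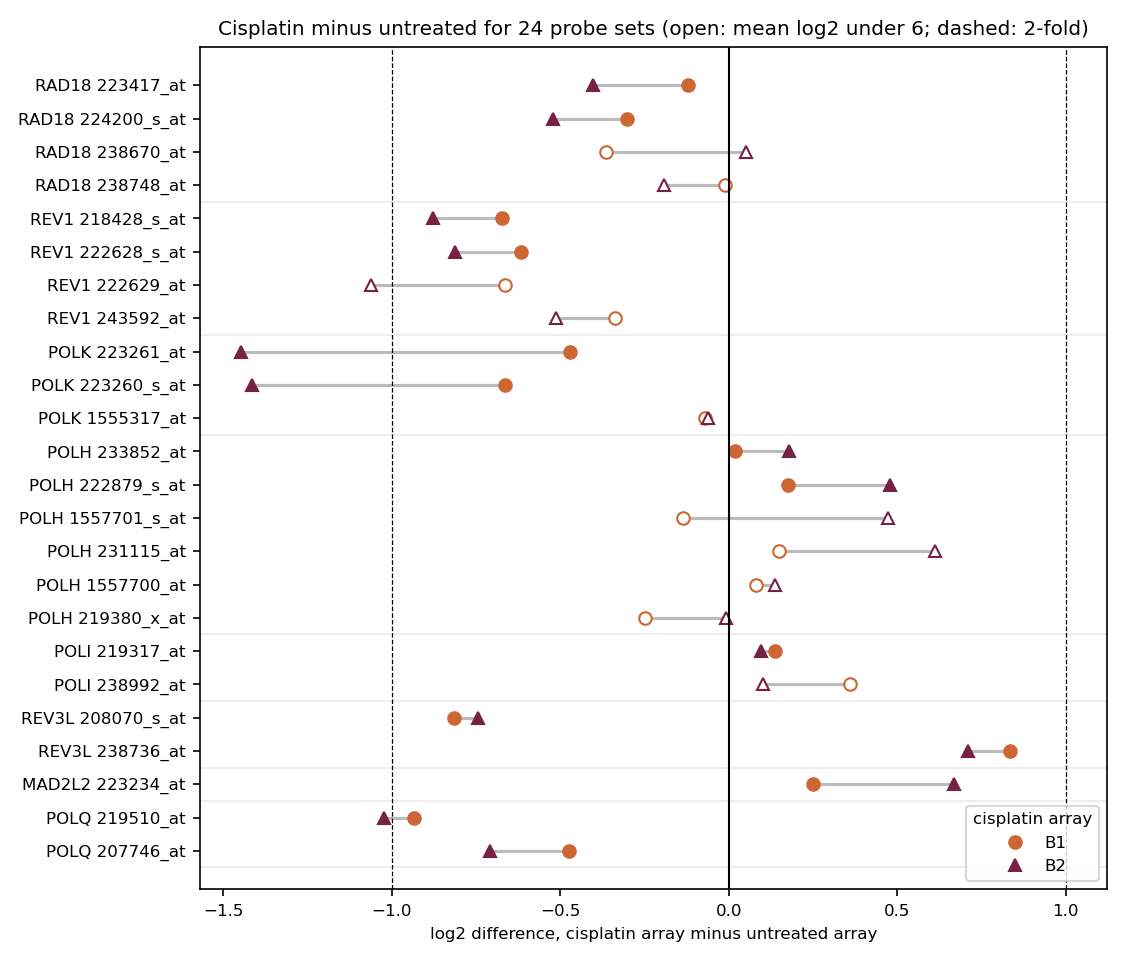
Log2 difference of cisplatin array B1 (circles) and B2 (triangles) from the untreated array for each of the 24 probe sets, grouped by gene; the solid line marks no difference, dashed lines mark 2-fold, and open symbols have a mean log2 value under 6. POLK shows the widest gap between B1 and B2 (-0.47 and -1.45 in 223261_at), and the REV3L probe sets lie on opposite sides (-0.82 and -0.74 against 0.84 and 0.71).

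REV3L, the catalytic subunit of polymerase zeta, gave opposite readings by probe set. Probe set 208070_s_at had 233 in B1 and 245 in B2, against 411 untreated, or -0.82 and -0.74 (mean -0.78, SE 0.18). Probe set 238736_at had 89.9 and 82.4 in B1 and B2, against 50.4 untreated, or 0.84 and 0.71 (mean 0.77, SE 0.19). Each probe set agreed closely between the cisplatin arrays, with pair SDs of 0.05 and 0.09. In each, both cisplatin values lay on the same side of the untreated value (28.3% of all probe sets were lower in both and 39.3% higher in both). Averaged over both probe sets the REV3L difference was 0.00. The direction of REV3L therefore depends on the probe set, and no source used here states which transcripts each probe set matches. Relative to all 54613 probe sets, 98.6% had a lower difference than 238736_at and 3.46% a lower one than 208070_s_at.

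MAD2L2, the HORMA-domain adaptor that links REV3L to REV1 and also belongs to the shieldin complex that limits resection of broken ends, was the highest of the 8 genes by the brightest probe set. Its only probe set, 223234_at, had 549 in B1 and 733 in B2, against 462 untreated. These are 119% and 159% of the untreated intensity (0.25 and 0.67, mean 0.46, SE 0.27). The difference was in the same direction in both arrays and larger in B2. Of all 19775 genes, 93.3% had a lower mean difference.

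POLQ was the lowest gene of the set by the brightest probe set, and its cisplatin arrays lay close together. Probe set 219510_at had 185 in B1 and 174 in B2, against 353 untreated, so that 52.4% and 49.2% of the untreated intensity was left (-0.93 and -1.02, mean -0.98, SE 0.18). It missed the 2-fold mark in B1 and passed it in B2. Probe set 207746_at had 65.2 and 55.3, against 90.5 untreated (-0.47 and -0.71, mean -0.59, SE 0.21). By the brightest probe set, 2.39% of all genes had a lower mean difference than POLQ, 2.48% than POLK, 3.94% than REV1 and 3.89% than REV3L.

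Genomic span, the length of a gene in the annotation with its introns, differed between the lower and the higher members, except that REV3L, the longest, can be placed with either. RAD18 (86.4 kb), REV1 (89.7 kb), POLK (99.2 kb) and POLQ (115 kb) were lower by their brightest probe set, and MAD2L2 (17.4 kb), POLH (44.3 kb) and POLI (51.8 kb) were higher. REV3L (185 kb) was lower by 208070_s_at, which keeps the spans of the lower and higher genes apart, but higher by 238736_at, with which they overlap. Across the 8 genes Spearman's rho between span and log2 difference was -0.93 in B1 and -0.83 in B2 with REV3L read from 208070_s_at, and -0.29 and -0.31 with REV3L read from 238736_at. Over the 7 genes without REV3L it was -0.93 and -0.96. These are descriptions over genes that share the untreated array, and both other readings of REV3L were added after its values were seen. Lower differences at longer spans were also seen among bright genes in general, so such an order is not particular to the family. The 10203 genes with a span whose mean log2 value reached 6 were divided by span into 10 groups of equal size. In B1 the medians were level from the shortest group to that of 9.26 to 14.5 kb (0.08 in both), and lower in long ones. The group from 85.7 to 141 kb had median differences of -0.30 in B1 and -0.31 in B2. RAD18, at -0.12 and -0.40, lay around these medians, whereas POLK, REV1 and POLQ lay below them in both arrays. REV3L lay below the medians of its own group, 141.3 kb and longer (-0.53 and -0.43), by 208070_s_at, and above them by 238736_at and by the mean of both probe sets (0.01 in B1 and -0.02 in B2). MAD2L2 lay above the medians of genes of 14.5 to 20.9 kb (0.08 and 0.08), and POLH and POLI above those of 40.5 to 56.3 kb (-0.07 and -0.07). Of the genes of 40.5 to 56.3 kb, 42.1% were lower in both arrays and 19.5% higher in both.

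**Figure D3:**
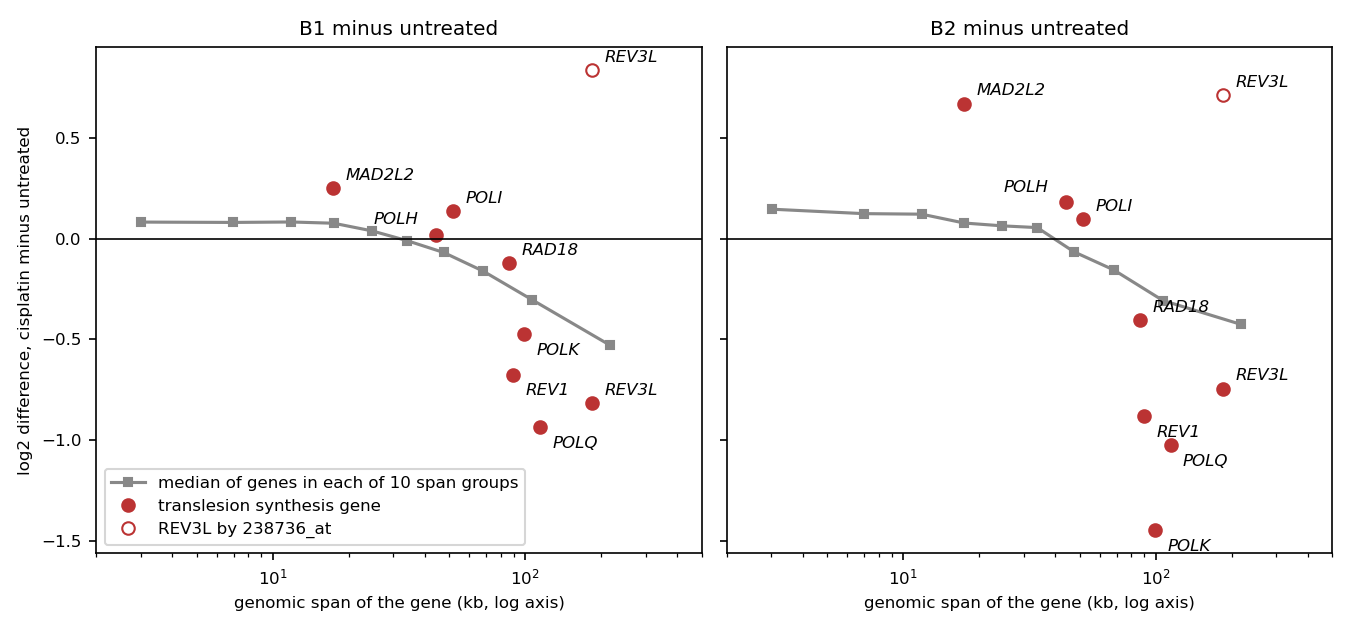
Log2 difference from untreated (B1 left, B2 right) against genomic span in kb on a log axis, for the brightest probe set of each of the 8 genes (filled red), for the other REV3L probe set, 238736_at (open red), and as the medians of 10 span groups of the 10203 bright genes (grey). Members of 86.4 to 115 kb lie below 0 and those of 51.8 kb or less above it, and REV3L lies on both sides (-0.82 and -0.74 by 208070_s_at, 0.84 and 0.71 by 238736_at). The grey medians run downwards with span, but are level in B1 over the shortest groups.

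The partners of the pathway were read from 4 lists, of which 56 of 59 genes were measured, each by its brightest probe set. POLDIP2, SHLD3 and RBBP8 were not measured by a probe set with a single symbol. Of the 56, 26 were lower in both cisplatin arrays (27.4% of all genes), 13 higher in both (39.2% of all genes) and 17 divided. Divided here includes a gene level with untreated in an array, as SMARCAL1 was (97.8 in B1, 89.7 in B2, 97.8 untreated). The medians of the 56 were -0.07 (B1) and -0.08 (B2), against 0.03 and 0.05 over all genes. Of the 49 partners whose mean log2 value reached 6, 21 were lower in both (34.2% of all genes that bright) and 12 higher in both (29.8%), and their medians were -0.05 and -0.06, against -0.02 and -0.01 for all bright genes. None passed limma's test over all genes (0% called; 1 of the 56 had an unadjusted limma p under 0.05, as had 2.86% of all genes), and none differed by 2-fold in both arrays (0.678% of all genes were that much lower and 0.142% higher). The median span was 74.3 kb for the lower partners and 18.5 kb for the higher ones, and over all genes the medians were 52.7 kb and 16.2 kb.

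The PCNA ubiquitin switch and fork partners had 11 of 20 genes lower in both arrays (27.4% of all genes, 34.2% of bright ones). They had 2 higher in both (39.2% and 29.8%), with medians of -0.06 and -0.09. SHPRH, a ubiquitin ligase that extends the chain on PCNA, had 105 in B1 and 71.6 in B2, against 132 untreated (-0.34 and -0.89). ATAD5, which unloads PCNA, had 139 and 140, against 193 untreated (-0.48 and -0.46). The deubiquitinase USP7 was at -0.45 and -0.38 by its brightest probe set and at -0.11 on average over 4, and the ligase RFWD3 at -0.29 and -0.51. The direct partners of RAD18, named here for their role and after their values were seen, had small differences: UBE2A differed by 0.19 and -0.15, UBE2B by 0.04 and -0.07, and PCNA itself, with 4087 and 3152 against 3790 untreated, by 0.11 and -0.27. USP1, the enzyme that removes ubiquitin from PCNA and likewise named after its values were seen, was at 0.16 and 0.06. HLTF, the other ligase that extends the PCNA chain, was also named after its values were seen. It had 297 in B1 and 816 in B2, against 381 untreated, so the cisplatin arrays lay on opposite sides. ZRANB3, a fork-remodelling translocase named on the same basis, had 47.8 and 34.7 against 91.0 untreated (-0.93 and -1.39), but its mean over 3 probe sets was -0.29.

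Replicative and other DNA polymerases had 9 of 19 genes higher in both arrays (39.2% of all genes, 29.8% of bright ones). They had 8 lower in both (27.4% and 34.2%), with medians of 0.00 and 0.00. The lower ones included POLA1, the catalytic subunit of polymerase alpha (332 and 181 in B1 and B2, against 396 untreated), the primase subunits PRIM1 (-0.28 and -0.52) and PRIM2 (-0.32 and -0.48), and POLD3 (-0.40 and -0.67). POLD3 and POLD2 are accessory subunits that polymerase delta shares with polymerase zeta. POLD3 had 334 in B1 and 276 in B2, against 441 untreated, while POLD2, named here for that role after its values were seen, had 634 and 854 against 592 (0.10 and 0.53). The 4 subunits of polymerase zeta thus gave REV3L a direction that depended on the probe set, POLD3 lower, and MAD2L2 and POLD2 higher in both arrays.

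Shieldin and HORMA partners of MAD2L2 had 4 of 8 genes lower in both arrays (27.4% of all genes, 34.2% of bright ones). They had 1 higher in both (39.2% and 29.8%), with medians of -0.25 and -0.24. The shieldin subunit SHLD2 was at -0.43 and -0.33, the end-protection factor RIF1 at -0.29 and -0.52, and the chromatin reader TP53BP1 at -0.36 and -0.15. MAD2L1BP, which with TRIP13 dismantles MAD2-type complexes, was the higher gene, at 436 and 609 against 379 untreated (0.20 and 0.69). MAD2L1, the spindle checkpoint relative of MAD2L2, was named after its values were seen and differed by 0.00 and 0.01. Polymerase theta end joining partners had 3 of 9 genes lower in both arrays, near the shares of all genes (27.4%) and bright ones (34.2%). They had 1 higher in both (39.2% and 29.8%), with medians of -0.14 and -0.10. RAD50 was at -0.34 and -0.62 and NBN at -0.18 and -0.22 (-0.02 on average over its 5 probe sets). The helicase HELQ was at 0.20 and 0.59, but at -0.03 on average over 5 probe sets, of which 3 were lower in both arrays.

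**Figure D4:**
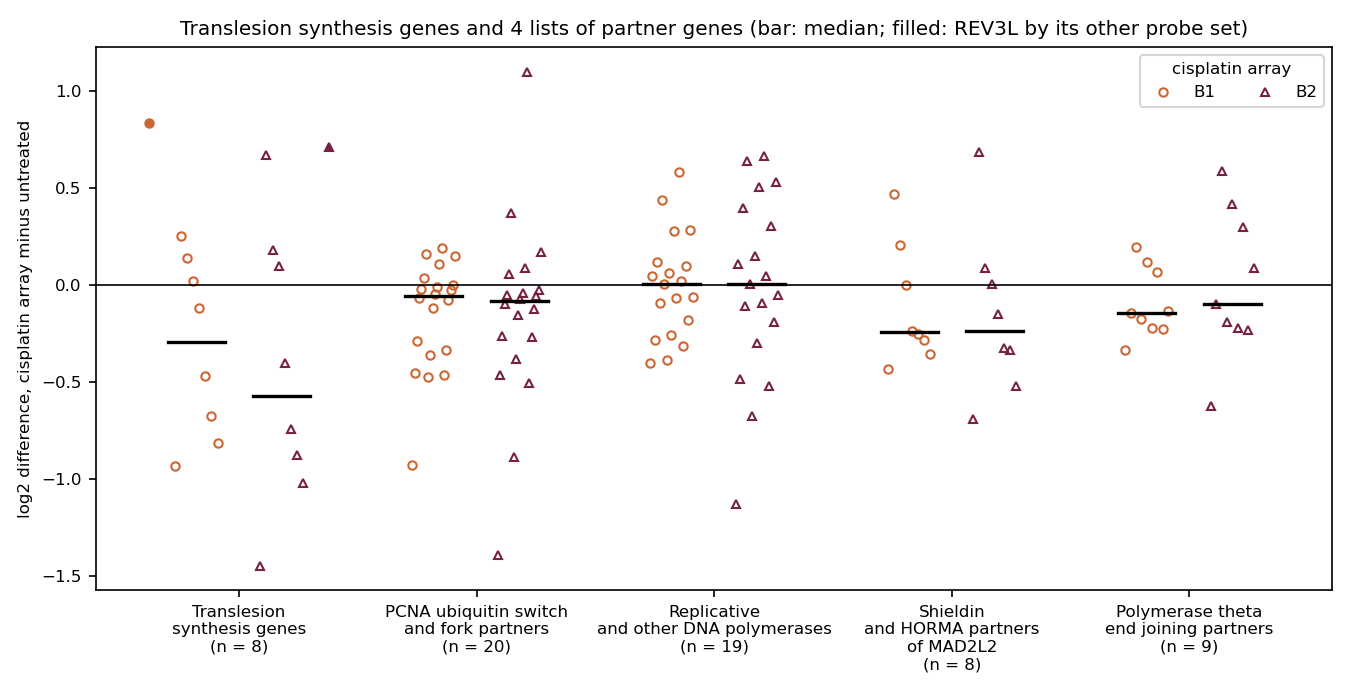
Log2 difference of B1 (circles) and B2 (triangles) from untreated for the 8 translesion synthesis genes and the 4 lists of partners, each gene by its brightest probe set; bars mark the median of a list. Filled symbols give REV3L by 238736_at. The translesion synthesis genes have medians of -0.30 and -0.57, or -0.05 and -0.15 with REV3L read from 238736_at, and the DNA polymerase list 0.00 and 0.00.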

How the data were processed

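The authors' deposited intensities, 1 per probe set and array, came from RMA (background correction, normalization between arrays, probe set summary), per the submitters' processing notes; the RMA version is not given in the sources used here, nor is the chip definition. They ran from 3.03 to 19645, a linear scale, and were put on the log2 scale with no pseudocount. There were no detection calls, so dim probe sets may be undetected ones, and having 3 arrays limits precision.

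Control probe sets (62) were dropped. Of 54613 others, 41091 had 1 gene symbol, 1801 several and 11721 none listed. Symbols were updated by gene number to GRCh38.p14, which also gave spans for 19735 of 19775 genes. Each gene's brightest probe set, by mean log2 value, stood for it. limma 3.58.1 in R 4.3.3 (lmFit, eBayes; 2.21 prior degrees of freedom) compared cisplatin with untreated over all probe sets and over all genes, assuming that the lone untreated array varied like the cisplatin pair; p-values were adjusted by Benjamini-Hochberg, with a threshold of 0.05. A check on simulated data required only that estimated differences followed those put in. It set no criterion for false or missed calls. Counts used differences in both cisplatin arrays of any size, 1.5-fold or 2-fold. A mean log2 value of 6 separated bright from dim features.

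Members, lists and tests were chosen with earlier results of these data known. All 8 members are named with every probe set; of each list, genes past 2-fold in both arrays and then the largest mean differences among bright genes on 1 side of untreated, up to 4. Alternatives were an offset, a dim filter, quantile normalization, median centring, a variance trend, other probe set choices and each cisplatin array alone.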

Additional observations from a re-analysis of the deposited data

How the results depend on the processing

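With an offset, quantile normalization or median centring, the 72 values of the 24 probe sets and the 24 values of the 8 genes kept their sign. The variance trend and the filters repeat the same differences, and with B1 or B2 alone the sign can only turn where the arrays were divided, which held for POLH 1557701_s_at (-0.14 with B1 alone, 0.47 with B2 alone) and RAD18 238670_at (-0.36 with B1 alone, 0.050 with B2 alone). REV3L had a gene value of 0.77 when probe sets ending in _x_at or _s_at were left out, because 238736_at then stood for the gene, and -0.0034 as the mean of both. No probe set or gene passed limma with an offset, a dim filter, quantile normalization, median centring or a variance trend. No gene passed with the mean of all probe sets either. A cisplatin array alone gave no limma p. Where limma was run, also without _x_at and _s_at probe sets, member adjusted p lay between 0.918 and 0.9998. With median centring 7 in place of 8 member probe sets were higher in both arrays, since POLH 233852_at lost its margin in B1. Above a mean log2 of 6 the member counts were 5 higher and 9 lower, and without _x_at and _s_at probe sets 8 lower, because fewer probe sets were counted.

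Counts past 2-fold in both arrays moved more. For probe sets, 127 higher and 360 lower became 66 and 199 with an offset of 16, 83 and 200 above a mean log2 of 6, 637 and 1460 at 1.5-fold, and 201 to 1222 higher and 716 to 2103 lower in a single array, the larger with B2. For genes, 28 higher and 134 lower became 189 and 524 at 1.5-fold and 47 to 591 higher and 299 to 890 lower in a single array. With the mean of all probe sets of a gene 38 genes were lower. Partner genes higher in both, 13, became 20 to 22 in a single array. The cause of these shifts was not tested beyond the fewer features or arrays that a setting leaves. No paired analysis was possible because the untreated group has 1 array and its label carries no replicate number.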
